A study of Mus musculus with 8 samples.

Results

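The subunits of oxidative phosphorylation that are encoded in the nucleus were examined in cultured mouse primary myoblasts, which are dividing muscle precursors derived from satellite cells. Members were taken by gene symbol alone, as rows of the array table named for a single gene of the Nduf (a, b, c, s and v), Sdh, Uqcr, Cox4 to Cox8 or Atp5 families. The rule matched 105 probe sets, which represent 81 of the 19938 genes of the table. Of these members, 35 carry complex I names, 4 complex II, 8 complex III, 17 complex IV and 17 complex V names.

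RNA was measured on Affymetrix MoGene 1.0 ST arrays, a 1-colour platform with probes along the whole transcript. There were 8 arrays, of which 4 carry the label WT and 4 the label Runx1f/f, and the labels number them 1 to 4 as biological replicates. Runx1f/f denotes mice with a floxed Runx1 gene, which encodes a transcription factor, and the labels also call these cells KO. The sources used here name no Cre driver and no deleted exon. Cells of both genotypes came from gastrocnemius muscle of C57bl/6 animals aged 2 to 3 weeks and were kept in proliferation medium on Matrigel. The sources used here do not say how many animals contributed to an array.

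Oxidative phosphorylation passes electrons from NADH (complex I) and succinate (complex II) through complex III and cytochrome c to complex IV, which reduces oxygen. Proton pumping by complexes I, III and IV drives ATP synthase, also called complex V. Most subunits are made in all cells, but complex IV has tissue isoforms: Cox6a2, Cox7a1 and Cox8b are the forms of heart and skeletal muscle, and Cox6a1, Cox7a2 and Cox8a those found widely.

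Promoters of complex IV isoform genes are shown because in the pair Cox8a and Cox8b the widely expressed and the muscle form held different motifs, with Cox6a1 as a further widely expressed form. Each window runs from 200 bases before to 30 bases after the RefSeq start of the gene, on the strand of the gene, in GRCm38.p6. Capitals mark matches to GCGCANGCG, the core of the site of the factor NRF1, to CCGGAAG, a site of GABP and other ETS factors that reads CTTCCGG on the other strand, and to CAGCTG, an E-box of muscle basic helix-loop-helix factors. The windows of Cox6a1, Cox8a and Cox8b lie at chr5:115348929-115349158, chr19:7217587-7217816 and chr7:140900417-140900646, all on the minus strand.
Cox6a1: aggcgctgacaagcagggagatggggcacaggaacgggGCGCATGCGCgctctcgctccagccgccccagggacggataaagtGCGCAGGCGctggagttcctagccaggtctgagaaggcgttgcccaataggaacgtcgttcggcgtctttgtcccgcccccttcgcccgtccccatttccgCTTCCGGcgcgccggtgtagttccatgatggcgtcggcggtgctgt
Cox8a: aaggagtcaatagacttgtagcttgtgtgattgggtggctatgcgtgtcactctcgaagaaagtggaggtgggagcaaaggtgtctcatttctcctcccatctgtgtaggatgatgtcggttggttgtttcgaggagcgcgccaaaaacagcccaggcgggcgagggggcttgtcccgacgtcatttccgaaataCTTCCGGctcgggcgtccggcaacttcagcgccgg
Cox8b: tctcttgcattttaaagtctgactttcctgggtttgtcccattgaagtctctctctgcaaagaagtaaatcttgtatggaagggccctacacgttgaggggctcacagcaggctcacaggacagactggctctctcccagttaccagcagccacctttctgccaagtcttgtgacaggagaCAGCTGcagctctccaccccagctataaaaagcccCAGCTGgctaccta

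Cox6a1 held NRF1 cores from positions -162 and -117 and an ETS match at -16, counted from the start of the gene, and the first NRF1 match overlaps the same motif read on the other strand. Cox8a held an ETS match at -5 and another at 33, past the end of the printed bases. Cox8b held E-boxes at -19 and 17 and none of the other motifs searched. The table held no window for Cox6a2, and the windows of Cox7a1 and Cox7a2 held no match.

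Over the members as a group, 66 had at least 1 promoter window in the RefSeq table, which runs from 250 bases before to 50 after a start, 71 windows in all. Both strands were searched. The NRF1 core was in 20 of these windows, or 28.2%, against 6.25% of all 32851 windows of this length in the table. The ETS motif was in 17, or 23.9%, against 8.86%. For the motif TCAAGGTCA of the estrogen-related receptors the shares were 2.82% (2 windows) and 0.423%. The E-box was in 6 member windows, or 8.45%, against 16.3% of all. These are matches of letters in annotated windows, and binding was not measured.

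Before the levels are read, a property of the deposited table has to be stated. In every row 3 means coincided to within 7.5e-05 on the log2 scale: that of the 4 WT arrays, that of the Runx1f/f pair 1 and 2, and that of the Runx1f/f pair 3 and 4. The values of Runx1f/f 1 and 2 are therefore mirror images around the mean of a gene, as are those of 3 and 4. The table carries no difference between the labelled genotypes, and residual degrees of freedom are overstated in any test on it. Runx1, the targeted gene, read 9.15, 9.99, 10.27 and 9.25 in arrays labelled WT 1 to 4 and 9.35, 9.98, 9.89 and 9.44 in those labelled Runx1f/f, so it did not separate the labels. It did part the array numbers: arrays 2 and 3 of both labels were at 10.03 ± 0.16 (SD, n = 4) and arrays 1 and 4 at 9.30 ± 0.13 (SD, n = 4), without overlap, 1.67-fold apart. Whether each column belongs to the sample its header names was not tested, so WT and Runx1f/f are used here as the labels of columns only. Array medians were 4.39 to 4.41 and correlations between arrays 0.988 to 0.997.

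Accordingly, 0 of the 81 members and 0% of all 19938 genes were called between the labelled genotypes (limma, Benjamini-Hochberg adjusted p under 0.05). An unadjusted p under 0.05 was reached by 0 genes, and the smallest p over the members was 0.999. The largest difference of a member between the labels was 5.0e-05. These figures restate the equal means, and they do not measure whether Runx1 affects these genes.

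The arrays numbered 2 and 3 of both labels were then set against those numbered 1 and 4. Earlier results on these data had shown that the arrays part this way along their leading component, so the differences below are a description without a test. The p-values that a test would give would not be those of arrays assigned beforehand.

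Most OXPHOS members were nearly level over the 8 arrays. The median gap between the highest and lowest array of a member was 0.18 on the log2 scale, against 0.25 over all genes and 0.34 over the 9969 genes at or above the median level. In 63 of 81 members the gap was under the median of all genes. The smallest gap was that of Cox7a2, at 0.06, and 3 complex IV muscle isoforms had the largest: 1.10 for Cox6a2, 0.80 for Cox7a1 and 0.79 for Cox8b. The median SD over the 4 arrays of a label was 0.07 in WT and 0.05 in Runx1f/f arrays, against 0.10 and 0.07 over all genes.

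**Figure D1:**
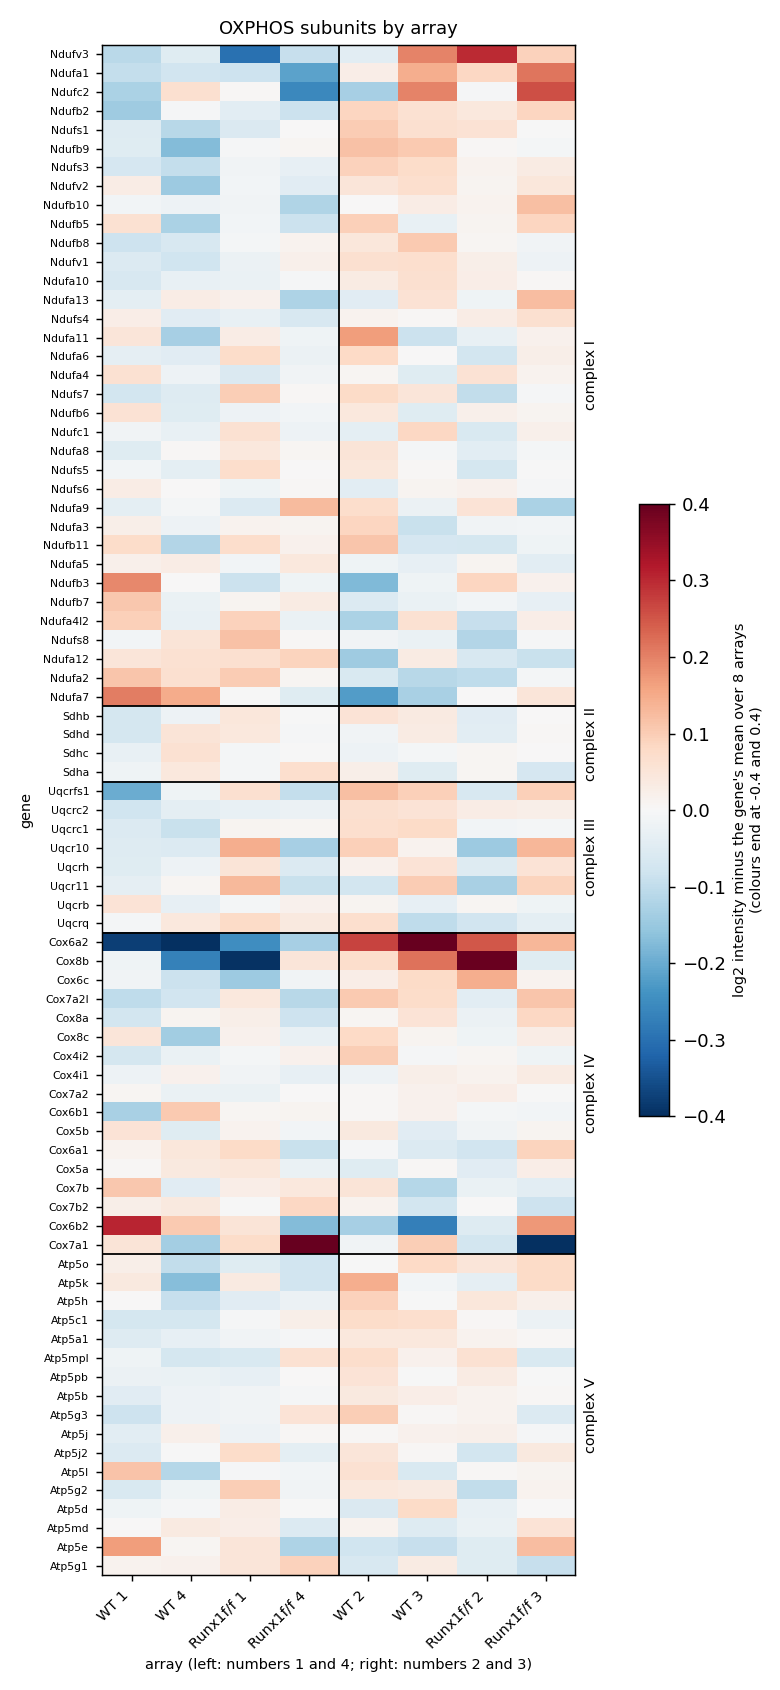
Log2 intensity of each of the 81 subunits (rows, by complex) in each array (columns) minus the mean of that gene over the 8 arrays, with colours ending at -0.4 and 0.4. Most rows are pale, and the rows of Cox6a2, Cox8b and Cox7a1 hold the strongest colours.

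In arrays 2 and 3, 11 members were above all arrays 1 and 4 without overlap, or 13.6% of the members, where 9.87% of all genes were. Another 2 members, or 2.47%, were below them all, where 10.5% of all genes were. Most members lie at or above the median level of all genes, and among the 76 that do, 14.5% were higher and 2.63% lower, where 14.4% and 16.4% of all genes at that level were. The share of higher members was thus close to that of genes of like level, and the share of lower members was below it. After each array was centred on its median, the counts were 6 higher (7.41%) and 3 lower (3.70%), against 9.44% and 11.1% of all genes. The share of higher members was then below that of all genes. Atp5a1, Atp5b, Ndufa10, Ndufb10 and Ndufv3 then overlapped. Without Runx1f/f 1 the count of lower members was 4 (4.94%), against 11.7% of all genes. The median difference over members, arrays 2 and 3 minus arrays 1 and 4, was 0.02, against -0.01 over all genes. Positive differences were found in 49 of 81 members (60.5%) and in 47.2% of all genes.

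Differences were small in size. A difference over 1.2-fold in either direction was seen in 3 of 81 members, namely Cox6a2, Cox8b and Ndufv3, or 3.70%, against 11.5% of all genes. Past 1.5-fold there was 1 member, Cox6a2, or 1.23%, against 3.15% of all genes. Median differences were 0.02 for complex I, -0.01 for complex II, 0.04 for complex III, 0.02 for complex IV and 0.03 for complex V.

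**Figure D2:**
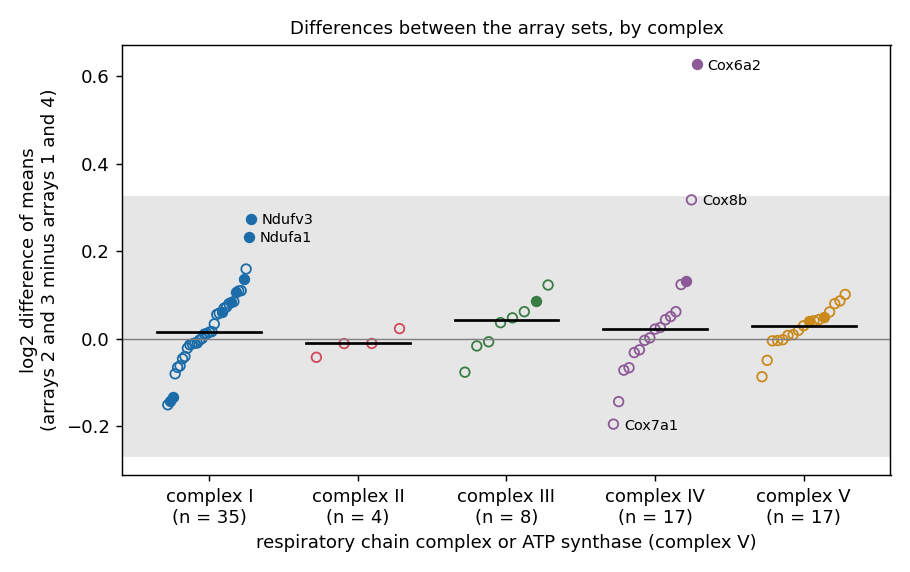
Log2 difference of means, arrays 2 and 3 minus arrays 1 and 4, for each subunit (points) by complex, with the median as a black line. Filled points are the 13 members whose array sets do not overlap, and grey marks the 5th to 95th percentile of all genes, -0.27 to 0.32. Cox6a2 at 0.63 is the only member outside it.

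Cox6a2 encodes the muscle form of subunit VIa of cytochrome c oxidase. It read 5.46, 6.11, 6.44 and 5.34 across WT 1 to 4, while Runx1f/f 1 to 4 gave 5.59, 6.09, 5.97 and 5.71. Every array numbered 2 or 3 was above every array numbered 1 or 4, with the closest pair being Runx1f/f 3 and Runx1f/f 4. The means were 6.15 ± 0.20 (SD, n = 4) in arrays 2 and 3 and 5.53 ± 0.16 (SD, n = 4) in arrays 1 and 4, a difference of 0.63, or 1.54-fold. The difference was 0.87 within WT arrays, 0.50 between Runx1f/f 2 and 1, and 0.26 between Runx1f/f 3 and 4. By label the mean was 5.84 in both sets of 4 arrays, with an SD of 0.52 in WT and 0.23 in Runx1f/f.

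Its widely expressed counterpart Cox6a1 did not follow it. Cox6a1 read 9.99, 9.97, 9.92 and 10.03 across WT 1 to 4, while Runx1f/f 1 to 4 gave 10.06, 9.90, 10.07 and 9.89. The array sets overlapped, and the difference was -0.03 with a pooled SD of 0.07 within the sets.

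Cox8b, the muscle form of subunit VIII, read 6.49, 6.58, 6.73 and 6.24 across WT 1 to 4, while Runx1f/f 1 to 4 gave 6.12, 6.91, 6.46 and 6.56. Its difference was 0.32, but the sets overlapped, because Runx1f/f 3 lay below both Runx1f/f 4 and WT 1. The difference was 0.29 within WT arrays, 0.79 between Runx1f/f 2 and 1 and -0.10 between Runx1f/f 3 and 4. Cox8a, the common form, lay between 10.06 and 10.22 on all arrays and differed by 0.06.

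Cox7a1, the muscle form of subunit VIIa, read 6.23, 6.16, 6.28 and 6.04 across WT 1 to 4, while Runx1f/f 1 to 4 gave 6.25, 6.11, 5.78 and 6.58. The spread came from Runx1f/f 3 and 4, which were 0.80 apart, while the WT arrays had an SD of 0.10. Its difference was -0.19 with overlap. The muscle isoforms thus had unlike profiles, Cox6a2 being the only one of them whose sets did not overlap. Cox7a2, the common form, read 9.56 to 9.61 on all 8 arrays.

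**Figure D3:**
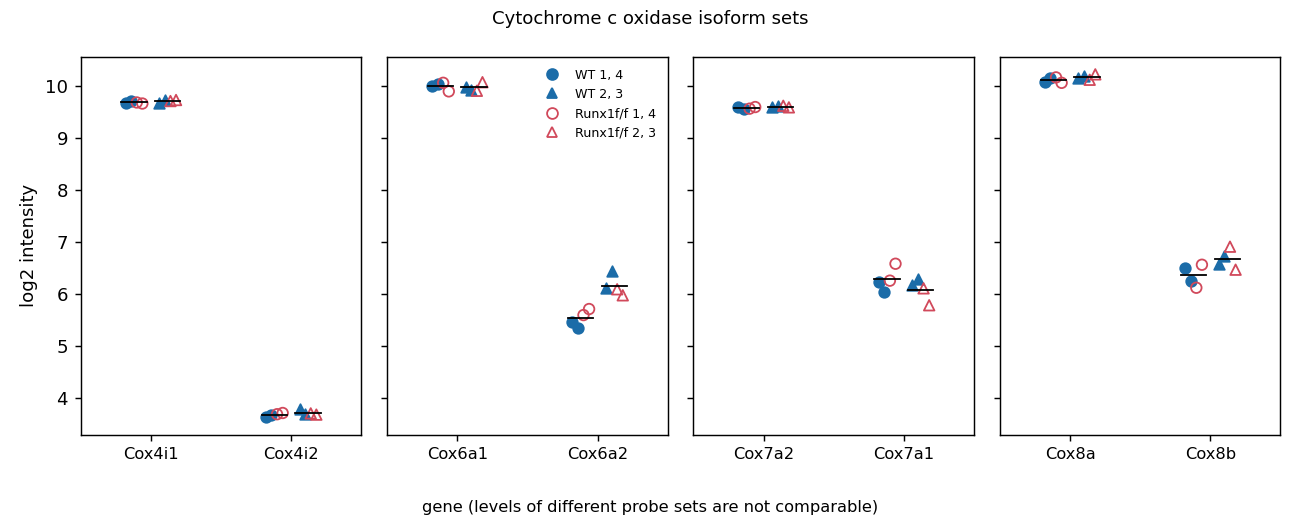
Log2 intensity of 4 complex IV isoform sets by array, with circles for arrays 1 and 4, triangles for arrays 2 and 3, filled blue for WT and open red for Runx1f/f labels, and lines at the mean of 4. Only in Cox6a2 do the triangles all lie above the circles. Levels of different probe sets are not comparable.

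The other isoform genes of complex IV were level or dim. Cox4i1, the common subunit IV, read 9.66 to 9.73 over the 8 arrays. Cox4i2, its lung and oxygen-sensing form, was at 3.62 to 3.79. Cox6b2, Cox7b2 and Cox8c, known from testis, had means of 4.20, 3.96 and 3.90 over the 8 arrays, and Cox6b2 varied most, from 3.93 in WT 3 to 4.51 in WT 1. With Cox4i2 and Ndufa4l2, at a mean of 3.48, these are the 5 members under the median level of all genes. No detection values were used, so whether these 5 were above background is not known.

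Of the remaining complex IV members, Cox6c differed by 0.13 without overlap. It read 11.19, 11.23, 11.28 and 11.12 across WT 1 to 4, while Runx1f/f 1 to 4 gave 11.06, 11.35, 11.22 and 11.19. Its second probe set differed by 0.06, and with the mean of both the sets overlapped. Cox5a and Cox5b, which bind the catalytic core, differed by -0.03 and -0.00 and Cox6b1 by 0.00. Cox7b differed by -0.07 and Cox7a2l, which helps join complexes III and IV, by 0.12, both with overlap.

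Complex I accepts electrons from NADH, and its nuclear core subunits carry the flavin and the iron-sulfur clusters. Of its 35 members, 6 were higher in arrays 2 and 3 without overlap (17.1%) and 2 lower (5.71%). Of all genes 9.87% were higher and 10.5% lower, and of genes at or above the median level 14.4% and 16.4%. With each array centred on its median, the higher members Ndufa10, Ndufb10 and Ndufv3 overlapped. Ndufs3, a core subunit, read 10.65, 10.81, 10.79 and 10.62 across WT 1 to 4, while Runx1f/f 1 to 4 gave 10.70, 10.73, 10.75 and 10.68. Its difference was 0.11, and its second probe set differed by the same amount. The other core subunits examined overlapped: Ndufs1 differed by 0.11, Ndufv1 by 0.07, Ndufv2 by 0.09, Ndufs7 by 0.01 and Ndufs8 by -0.08.

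Among the accessory subunits of complex I, Ndufv3 and Ndufa1 had the largest positive differences. Ndufv3 read 6.40, 6.47, 6.71 and 6.46 across WT 1 to 4, while Runx1f/f 1 to 4 gave 6.21, 6.81, 6.60 and 6.42. The sets parted narrowly, with WT 2 at 6.47 just above WT 4 at 6.46. The difference of 0.27 was 0.16 within WT arrays, 0.60 between Runx1f/f 2 and 1 and 0.18 between Runx1f/f 3 and 4.

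Ndufa1, an X-linked subunit of the membrane arm, read 7.39, 7.51, 7.63 and 7.41 across WT 1 to 4, while Runx1f/f 1 to 4 gave 7.40, 7.57, 7.70 and 7.27. Its difference of 0.23 was positive in each of the 3 column sets of equal mean, at 0.17, 0.16 and 0.43. Ndufb2, Ndufa10 and Ndufb10 were the other higher members of complex I, with differences of 0.14, 0.06 and 0.08.

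The lower members of the whole pathway were both in complex I. Ndufa2 read 8.64, 8.47, 8.42 and 8.60 across WT 1 to 4, while Runx1f/f 1 to 4 gave 8.63, 8.43, 8.53 and 8.54, a difference of -0.14. Ndufa12 read 8.72, 8.53, 8.70 and 8.73 across WT 1 to 4, while Runx1f/f 1 to 4 gave 8.73, 8.60, 8.58 and 8.76, a difference of -0.13. Ndufa7 had the largest negative difference of the complex, -0.15, but its sets overlapped. Ndufa4, which carries a complex I name and is now counted with complex IV, differed by 0.02.

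Complex II oxidizes succinate and is shared with the citric acid cycle. Its 4 genes were the most even of the pathway, with a median range of 0.12 and no member whose sets parted. The flavoprotein gene Sdha differed by -0.04, the iron-sulfur gene Sdhb by 0.02, and the membrane anchors Sdhc and Sdhd by -0.01 each.

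Complex III passes electrons from ubiquinol to cytochrome c. Only Uqcrc2, a core protein, parted the sets, at 11.03, 11.17, 11.16 and 11.07 across WT 1 to 4, while Runx1f/f 1 to 4 gave 11.08, 11.14, 11.13 and 11.08, a difference of 0.09. Its partner Uqcrc1 differed by 0.06, and the Rieske iron-sulfur protein gene Uqcrfs1 by 0.12, both with overlap. Uqcrfs1 had the widest range of the complex, from 7.84 in WT 1 to 8.16 in WT 2. The largest negative difference was that of Uqcrq, at -0.08, and Uqcrb differed by -0.02.

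A further pattern stood across the array sets in 4 of the 8 complex III members, where Runx1f/f 1 was above 2 and 3 above 4. It was not particular to complex III. It was found in 2 of 4 complex II, 7 of 17 complex IV, 6 of 17 complex V and 6 of 35 complex I members. The same order held in 25 of 81 OXPHOS members (30.9%) and in 21.2% of all genes. Of the members, 23 (28.4%) had Runx1f/f 2 above 1 and 3 above 4, against 25.0% of all genes. Another 15 (18.5%) had 2 below 1 and 3 below 4, against 33.3% of all genes. Because these arrays mirror each other in pairs, the orders rest on 2 free values a gene.

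Complex V makes ATP. Its alpha and beta subunit genes, Atp5a1 and Atp5b, both parted the sets by small amounts. Atp5b read 12.55, 12.63, 12.62 and 12.57 across WT 1 to 4, while Runx1f/f 1 to 4 gave 12.58, 12.61, 12.60 and 12.59, a difference of 0.04. Atp5a1 differed by 0.05, from 12.19 in WT 1 to 12.29 in WT 2. With quantile normalization applied again these differences were 0.02 and 0.03, and both genes overlapped.

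The gamma subunit gene Atp5c1 differed by 0.06 with overlap. Atp5o, of the stalk, differed by 0.10 and Atp5k by 0.09, the largest positive differences of the complex. The genes of subunit c, which forms the rotor ring, differed by -0.09 (Atp5g1), -0.00 (Atp5g2) and 0.03 (Atp5g3). Atp5g1 had the largest negative difference of the complex, followed by Atp5e at -0.05.

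The same contrast was read in subsets of the arrays, where fewer arrays have to part. In the first run of source numbers (139 to 142), which holds arrays 1 and 2 of both labels, 25 members (30.9%) were higher in arrays 2 and 14 (17.3%) lower, against 25.8% and 24.9% of all genes. In WT arrays alone, 33 members (40.7%) were higher in 2 and 3 without overlap and 11 (13.6%) lower, against 24.5% and 23.3% of all genes. In Runx1f/f arrays alone, 23 (28.4%) were higher and 15 (18.5%) lower, against 25% and 33.3% of all genes. The median difference over members was 0.05 in WT and 0.01 in Runx1f/f arrays. Both labels gave a positive difference in 32 members and a negative one in 15, and the labels had opposite signs in 34. The same signs were not counted over all genes, so these counts are not read as particular to the members.

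**Figure D4:**
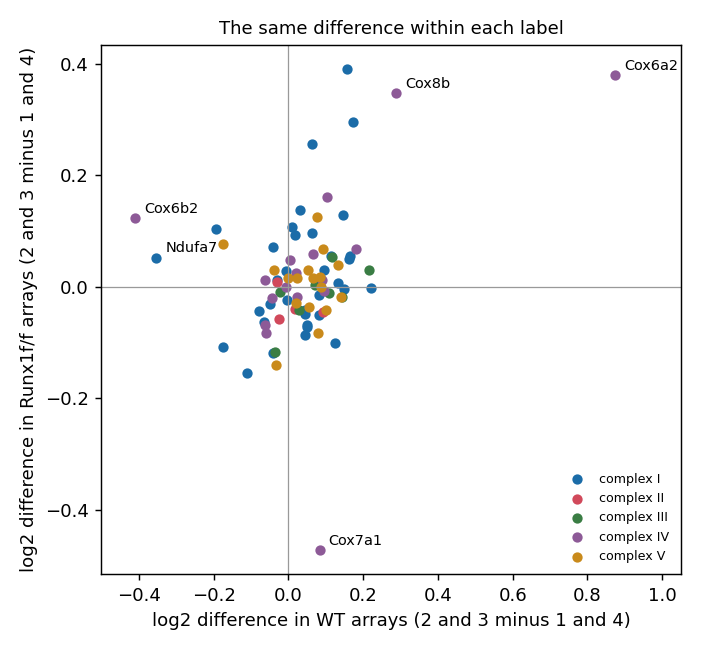
Log2 difference, arrays 2 and 3 minus arrays 1 and 4, within WT arrays (horizontal) and within Runx1f/f arrays (vertical), with a point for each of the 81 subunits coloured by complex. Cox6a2 lies apart at 0.87 and 0.38, Cox7a1 at 0.08 and -0.47, and 34 points lie in the quadrants of opposite sign.

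Markers of differentiating muscle differed between the array sets in the same direction as Cox6a2. Of 12 such genes, 10 were higher in arrays 2 and 3 without overlap, or 83.3%, against 9.87% of all genes. Positive differences were found in 12 of these markers, with a median of 0.83. Their median level was 10.81 to 11.32 in arrays 2 and 3 and 9.56 to 10.28 in arrays 1 and 4. Over single arrays the order was not that of Cox6a2. The median deviation of the markers was highest in Runx1f/f 2 (0.78) and lowest in Runx1f/f 1 (-0.78). Cox6a2 was highest in WT 3 and lowest in WT 4. Myog, which drives terminal differentiation, read 11.05, 11.70, 11.76 and 10.84 across WT 1 to 4, while Runx1f/f 1 to 4 gave 10.74, 11.94, 11.48 and 11.20. The part of this shift in the level of Cox6a2 was not tested. In bulk RNA, more cells with the transcript and more transcript per cell cannot be told apart.

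**Figure D5:**
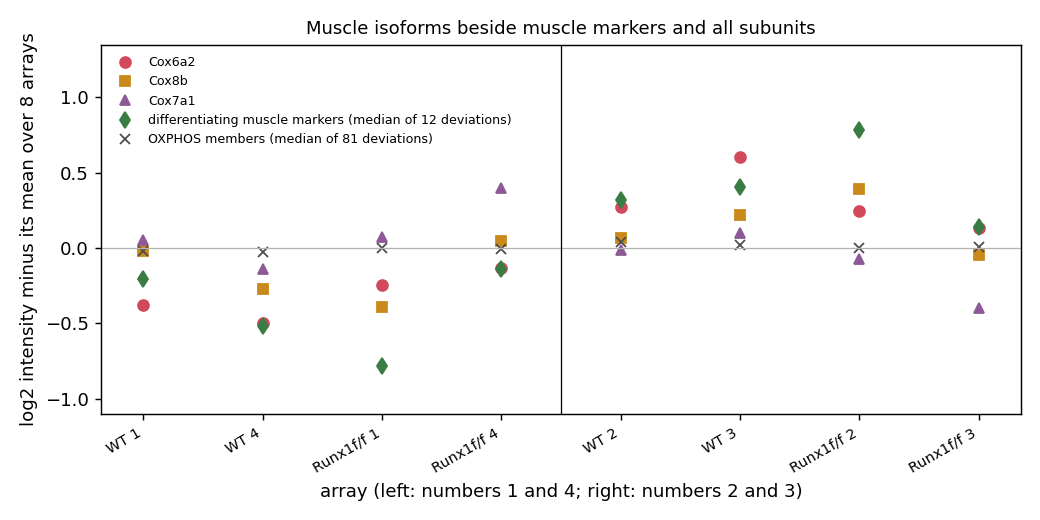
Deviation of log2 intensity from its mean over the 8 arrays, by array, for Cox6a2, Cox8b, Cox7a1, the median over 12 differentiating muscle markers and the median over the 81 subunits. The muscle markers and Cox6a2 are below 0 in the 4 arrays on the left and above it in the 4 on the right, while the subunit median stays between -0.03 and 0.04.

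The 6 myoblast markers had means over the 8 arrays of 7.07 for Pax7, 8.11 for Myf5, 10.13 for Cdh15, 10.21 for Itga7, 11.31 for Des and 11.35 for Myod1. Levels of the 12 differentiation markers were 8.17 (Mb) to 12.60 (Acta1), so transcripts of both stages were present. Of the myoblast markers, Des and Cdh15 were higher in arrays 2 and 3 without overlap, by 0.18 and 0.25. Myf5 and Myod1 were lower, with differences of -0.89 and -0.26. Markers of endothelium lay at means of 3.32 to 3.64, and those of macrophages and leukocytes at 3.28 to 4.60. Their lists had 1 higher and 2 lower of 5, and 1 higher and 0 lower of 6. Of all genes 9.87% were higher and 10.5% lower, and lists of 4 to 6 genes are too short to be set beside these shares. Fibroblast markers, with Col3a1 at 8.90 and the others at 3.49 to 4.62, gave 0 of 6 either way, adipocyte markers 0 higher and 1 lower of 5, and smooth muscle and pericyte markers, with Acta2 at 11.70, 0 of 4.

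The genes with profiles closest to Cox6a2, by Euclidean distance of centred log2 values over the 8 arrays, were Fgd4, Igf2r and Emp2, at distances of 0.15, 0.16 and 0.17. Their differences were 0.61, 0.69 and 0.54.

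Other genes of mitochondrial energy metabolism were counted over whole gene lists. Among 15 regulators of mitochondrial genes, 0 were higher and 2 lower (13.3%) in arrays 2 and 3 without overlap. Of all genes 9.87% were higher and 10.5% lower, so the share of lower regulators was close to that of all genes. Ppargc1a, which encodes the coactivator PGC-1alpha, read 5.70, 5.31, 5.04 and 5.90 across WT 1 to 4, while Runx1f/f 1 to 4 gave 5.79, 5.18, 5.18 and 5.79. All arrays 2 and 3 were below all arrays 1 and 4, a difference of -0.62. Gabpa was the other lower gene, at -0.07. Nrf1 and Tfam, which activate nuclear and mitochondrial transcription of the pathway, differed by 0.01 and 0.00.

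Assembly factors, which build the complexes and are not part of them, had 1 higher (2.63%) and 5 lower (13.2%) of 38 measured. Of all genes 9.87% were higher and 10.5% lower, and of genes at or above the median level 14.4% and 16.4%. Of the 38 differences 29 were negative and 9 positive (23.7%), where 47.2% of all genes had positive differences. The largest negative difference was that of Atpaf2, an ATP synthase assembly factor, which read 7.82, 7.58, 7.64 and 7.89 across WT 1 to 4, while Runx1f/f 1 to 4 gave 7.99, 7.48, 7.49 and 7.97. The higher factor was Cox19, at 0.28. The median difference of the list was -0.06, against 0.02 for the subunits. The same median was -0.01 over all genes and -0.02 over genes at or above the median level.

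Citric acid cycle genes gave 3 higher (23.1%) and 2 lower (15.4%) of 13, where 9.87% and 10.5% of all genes were. Of genes at or above the median level 14.4% were higher and 16.4% lower. Idh2, the mitochondrial isocitrate dehydrogenase that uses NADP, differed by 0.23 and Suclg2, a subunit of succinyl-CoA ligase, by -0.28. Of 11 carriers and energy transfer genes 3 were higher (27.3%) and 0 lower. Slc25a4, the muscle ADP/ATP carrier, was among the higher genes, at 0.07. Ckmt2 had the largest difference of the list in size, at -0.44 with overlap. Cycs, which encodes cytochrome c, and Cyc1, a complex III subunit outside the naming rule, differed by -0.04 and 0.03, both with overlap. The 13 subunits encoded in mitochondrial DNA were not analysed here.

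Probe sets of these families can share sequence with processed copies elsewhere in the genome. Of the 81 members, 16 had more than 1 probe set, up to 6 for Atp5l. The probe sets of a gene differed in the same direction in 10 of the 16 and in opposite directions in 6, where Uqcr11 had the widest split, at 0.15 and -0.01. A further 6 rows named for several genes, among them Cox7c and Ndufb4, were left out by the rule.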

How the data were processed

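Values are log2 intensities as the authors deposited them, with 1 per array for each probe set. The submitters' processing notes name RMA and Partek, with no version. No label records the step that made the column means equal. Columns were matched to samples through the accessions that head them.

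Rows were named through the platform annotation given with the table. Of 35399 rows, 21789 had 1 gene symbol, 1621 had several and 11989 were not annotated there. Each gene was represented by its row with the highest mean over the 8 arrays. Members, gene lists and the contrast of arrays 2 and 3 against 1 and 4 were chosen with earlier results of these data known. The rule for named genes took isoform sets, core subunits, in each complex the 2 largest differences each way, and the 3 genes closest to Cox6a2. All other members named, such as those without overlap, were chosen after their values were seen.

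For the labelled genotypes a limma model (version 3.58.1, R 4.3.3) was fitted to all genes with no covariate, and its two-sided p-values were adjusted by Benjamini-Hochberg, with a threshold of 0.05. The fit was tested on simulated data. Its p-values would measure only the spread between these arrays. The contrast of array numbers was described by means, overlap and medians. Deviations of arrays with the same number correlated by 0.39, 0.46, 0.60 and 0.57 over genes. The number was therefore tried as a block in the genotype model. The pairing comes from these values, not from the labels. Alternatives were other scalings, a filter on dim genes, the mean of all rows of a gene, blocks, another variance model and each array left out. The number of arrays limits the precision. RefSeq promoter windows of GRCm38.p6 were matched by gene identifier.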

Additional observations from a re-analysis of the deposited data

Results flagged for a closer look

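Single arrays stood apart from the others of their label in 4 of 102 sets of 4 WT values, or 3.92%. About 5% of such sets would be marked by chance if the values were independent. The mirrored Runx1f/f arrays cannot be marked for a single gene. Ndufa12 read 8.53 in WT 2, against 8.70 to 8.73 in the other WT arrays. Ndufb7 read 8.48 in WT 1, with the nearest at 8.35. Ndufs8 read 8.91 in WT 4, with the nearest at 8.84. The median level of the complex I members was 8.60 in WT 2, against 8.72 to 8.73 in the other WT arrays. That level is the value of whichever gene ranks in the middle: as deviations from the mean of each gene, the complex I median in WT 2 was 0.033, the highest of the 8 arrays, with 22 of 35 members above their mean.

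In 5 members (6.17%, against 8.31% of all genes) all arrays 2 and 3 lay on one side of arrays 1 and 4 in WT and on the other side in Runx1f/f arrays, and the difference between the labels was not tested. In WT and Runx1f/f arrays these differences were -0.35 and 0.052 for Ndufa7, -0.19 and 0.10 for Ndufb3, 0.050 and -0.069 for Ndufs5 (where Runx1f/f 3 minus 4 was only -0.00013), 0.13 and -0.10 for Ndufs7, and 0.14 and -0.019 for Uqcrc1.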

How the results depend on the processing

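The count of 0 members between the labelled genotypes held under the other scalings, the dim filter, the mean of rows, the blocks, the other variance model and each array left out. The replicate number as a block was fitted only in this genotype model, where no gene was called with or without it. Settings that keep the equal means fix the count of 0 members, so it says nothing about robustness. For arrays 2 and 3 against 1 and 4, the count of higher members, 11 as reported, became 6 with arrays centred on their medians. It was 2 (2.47%) when 1.2-fold was also required, against 5.05% of all genes. It was 25 within the first run of source numbers (139 to 142), 33 in WT arrays alone and 23 in Runx1f/f arrays alone, where fewer arrays have to part. The count of lower members, 2 as reported, became 14, 11 and 15 in these array subsets and 0 with 1.2-fold required, where 3.74% of all genes were lower. With 1 array left out, higher members numbered 11 to 15 and lower members 2 to 4. The 11 and 2 members were among them each time, because leaving out an array cannot undo a separation of the full sets. Those counts could only stay or rise, so they say nothing about robustness. The median difference of 0.02 was 0.050 in WT arrays alone, and 0.01 to 0.03 with 1 array left out. The cause of the change under centring was not tested. Of 685 values under alternatives, for members taken by the rule for named genes, 52 moved by more than the spread within the array sets. Among these, no member without overlap changed sign in the alternatives run. Cox6c, Ndufa10, Ndufa12, Ndufb2 and Ndufb10 also had no overlap, but the rule did not take them and their signs were not checked. In array subsets and with 1 array left out, the lack of overlap fixes the sign. Only the other scalings and the mean of rows could have changed it. Signal over background was not used as a limit.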
